A study of Bos taurus with 16 samples.

Results

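REEP6 (ENSBTAG00000002311, counted at the merged locus XLOC_035806) and ANKRD33B (ENSBTAG00000011337, XLOC_019540) were followed through all 16 libraries, as 2 of the 44265 features in the count files. They were chosen by identifier, and they were selected on a measured value, since both are among the genes that were higher in the adipose tissue of 5-HTP-supplemented calves. Their adipose difference between treatments is therefore given as a description without a test. Tests were kept for muscle, whose libraries the choice did not use, and for the difference between tissues.

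Holstein bull calves, about 21 days old at the start, received milk replacer (8 L per day) with saline (CON, n = 4) or with 5-hydroxytryptophan (5-HTP, 90 mg per day, n = 4) for 10 days. 5-HTP is the immediate precursor of serotonin and was given by mouth with the milk. Subcutaneous white adipose tissue and gluteus medius muscle were sequenced as bulk poly-A RNA, with 1 library per tissue and calf. The calves are numbered 1 to 4 (CON) and 5 to 8 (5-HTP), and the same number in both tissues was taken as the same calf. Total counts ranged from 17289845 to 25221353 in adipose libraries and from 20655954 to 28649548 in muscle libraries, and no pair of libraries within a group agreed within sampling noise (the smallest chi-square was 21.8 times its degrees of freedom).

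REEP6 belongs to the receptor expression-enhancing proteins, a family of membrane proteins that bend and stabilise the tubules of the endoplasmic reticulum and affect the passage of cargo to the cell surface. It is best known from rod photoreceptors, where its loss causes retinal degeneration. ANKRD33B carries ankyrin repeats, short helical units that usually bind other proteins, and its own function is little characterised. Adipocytes store triglyceride and secrete proteins such as adipsin, while skeletal muscle fibres are filled with contractile proteins, so the same gene is read against very different RNA pools in these tissues.

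In the RefSeq gene table for ARS-UCD2.0 both genes are protein coding and no other listed gene overlaps either of them. REEP6 lies between PCSK4 and a transfer RNA gene (TRNAG-UCC), and ANKRD33B lies between DAP and the uncharacterised LOC112443012. Each merged locus held 1 identifier, so the counts are not shared with another row. The study also designed primers for both transcripts. The forward primers are shown, 5′ to 3′, because they mark the transcripts that its own assay read. The PCR values were not analysed here.
REEP6 forward primer: ctcctctgctgtgcagtctc
ANKRD33B forward primer: ccttattgtcgcctgctacc

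REEP6 and ANKRD33B were both higher in the adipose tissue of 5-HTP-supplemented calves, by about the same factor. REEP6 was an adipose transcript that was close to the detection limit in muscle. ANKRD33B was well counted in both tissues and was higher in muscle. Neither gene differed detectably between treatments in muscle. Within the adipose groups, deviations of the genes had the same sign in 2 of 8 calves, although those of REEP6 in calves 6 and 7 were near 0. Calf 1 was the highest CON calf for both. Values are counts scaled to a common library size (CPM), scaled with TMM factors over all 16 libraries so that both tissues share 1 scale. CPM do not correct for transcript length, so levels are compared between calves and tissues and never between the genes.

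**Figure D1:**
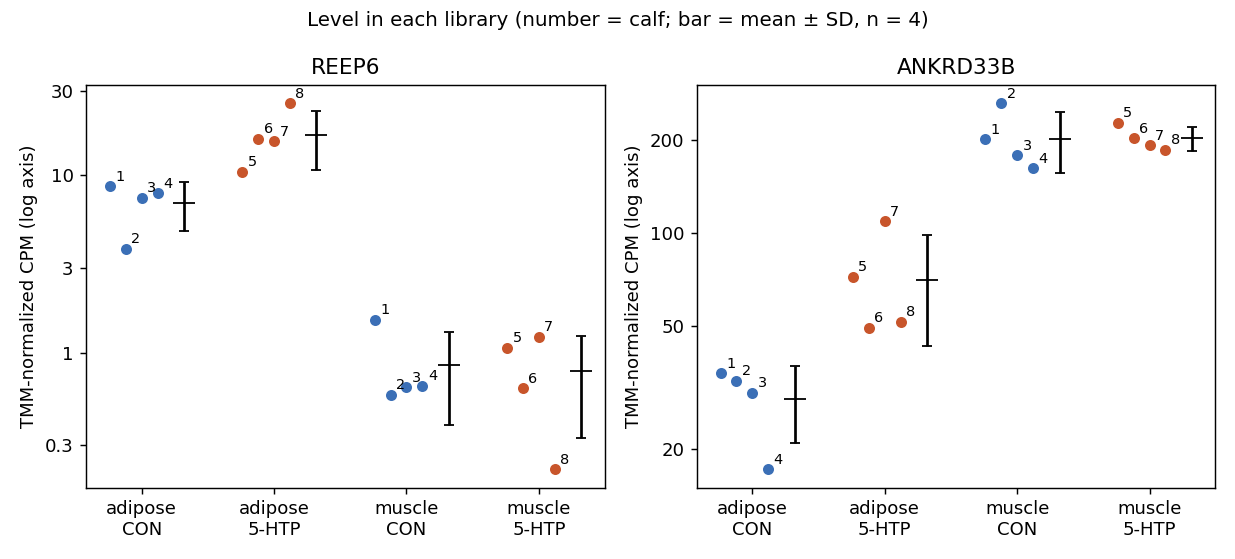
TMM-normalized CPM (log axis) of REEP6 (left) and ANKRD33B (right) in every library, by tissue and treatment, with points numbered by calf and bars for the mean ± SD (n = 4). REEP6 falls from between 3.86 and 25.5 CPM in adipose tissue to between 0.219 and 1.53 CPM in muscle, while ANKRD33B lies between 17.2 and 109 CPM in adipose tissue and between 162 and 263 CPM in muscle.

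In adipose tissue, REEP6 was at 8.70, 3.86, 7.49 and 7.91 CPM in CON calves 1 to 4, from 293, 93, 227 and 230 counts. The 5-HTP-supplemented calves 5 to 8 had 10.5, 16.1, 15.6 and 25.5 CPM, from 382, 590, 543 and 674 counts. Calf 2 was the lowest CON calf and calf 8 the highest calf of all, and the nearest values of the groups, those of calves 1 and 5, were close to each other. The group means were 6.99 ± 2.14 and 16.9 ± 6.27 CPM (SD, n = 4). This is a logFC of 1.27 (standard error 0.34), a 2.42-fold difference. In bulk tissue, more cells that contain a transcript and more of it per cell cannot be told apart.

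For ANKRD33B, adipose levels in CON calves 1 to 4 were 35.1, 33.2, 30.4 and 17.2 CPM, from 1181, 799, 921 and 499 counts. In 5-HTP-supplemented calves 5 to 8 it was at 72.2, 49.3, 109 and 51.6 CPM, from 2631, 1804, 3802 and 1362 counts. Calf 4 was the lowest CON calf and calf 7 stood above the other 5-HTP-supplemented calves. The means were 29.0 ± 8.09 and 70.5 ± 27.7 CPM (SD, n = 4), with a logFC of 1.28 (standard error 0.31), a 2.43-fold difference. Both genes were among the features upregulated at an FDR at or under 0.20 by edgeR's likelihood ratio test, which were 0.0545% of those tested, and the 5-HTP group lay wholly above the CON group in both, as in 1.3% of the features tested. These counts restate how the genes were chosen. The call ended for both genes when edgeR's quasi-likelihood test was used instead, and over all 15 alternatives it was made in 4 for REEP6 and in 11 for ANKRD33B.

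The spread within the adipose groups was much wider than counting error. The coefficient of variation of REEP6 was 30.7% in CON calves and 37.1% in 5-HTP-supplemented calves, where Poisson counting alone would give 6.89% and 4.27%. For ANKRD33B it was 27.9% and 39.2%, against 3.43% and 2.04% from counting. The biological coefficient of variation fitted by edgeR was 0.326 for REEP6 and 0.306 for ANKRD33B, close to the median of 0.327 over all features tested in adipose tissue. Depth therefore sets little of the error in this tissue.

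A single calf moved each adipose difference. For REEP6 the logFC was 0.99 without calf 8 and 1.44 without calf 5. For ANKRD33B it was 0.997 without calf 7 and 1.42 without calf 6. The call at an FDR of 0.20 ended for REEP6 without calf 2, 3, 4, 6, 7 or 8, and for ANKRD33B without calf 4, 5 or 7. Both genes stayed higher in 5-HTP-supplemented calves in each of the 8 fits that left out 1 calf. Since every 5-HTP value lay above every CON value, leaving out 1 calf could not turn the direction. The calf with the most weight was a different one for each gene.

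Marker genes were read in the same adipose libraries. CFD (adipsin, a serine protease of the complement system that adipocytes secrete) had levels of 23.4, 50.3, 21.8 and 25.9 CPM in CON calves 1 to 4, then 22.7, 15.2, 12.8 and 7.58 CPM in calves 5 to 8. The summed level of both macrophage markers, C1QB and SIGLEC1, was 42.4 to 62.6 CPM in the CON group, against 12.7 to 58.9 CPM in the 5-HTP group. The immediate early genes FOS and EGR1, which respond within minutes to handling and stress, summed to between 26.3 and 109 CPM in the CON group, against 19.7 to 295 CPM in the 5-HTP group. The ranges of all 3 overlapped between the groups. Calf 8, with the highest REEP6, had the lowest CFD, the lowest macrophage markers and the lowest immediate early genes. The part of these cells and states in the adipose difference was not tested. All 7 marker genes used here come from the list of genes that the study called lower in muscle, and none is in its adipose list.

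Muscle RNA in the adipose samples was close to the limit of counting. Both muscle fibre markers, TTN (titin, XLOC_017327) and IGFN1, had 0 counts in the 4 CON adipose libraries, where 3 counts would be 0.0891 to 0.125 CPM. In the 5-HTP adipose libraries they summed to 0.521, 0.191, 0.143 and 0.303 CPM in calves 5 to 8, from at most 11 counts of TTN and 8 of IGFN1. The sum thus lay higher in every 5-HTP library than in every CON library, the same direction as both genes. Such a separation was seen in 1.3% of the features tested in adipose tissue. Neither marker separated the groups alone, since each had 0 CPM in its lowest 5-HTP library. In muscle the same sum was never under 1412 CPM. Over both groups together, the adipose mean of this sum was 0.00493% of its muscle mean, and the adipose mean of ANKRD33B was 24.7% of its muscle mean. The part of muscle RNA in the adipose values was not tested.

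In muscle, REEP6 was near the detection limit and did not differ detectably between treatments. The libraries of CON calves 1 to 4 held 21, 11, 11 and 13 counts, or 1.53, 0.577, 0.636 and 0.650 CPM. Those of calves 5 to 8 held 22, 10, 18 and 3 counts, or 1.06, 0.630, 1.23 and 0.219 CPM. The groups overlapped, with the lowest value of all in calf 8, the calf with the highest adipose value. CON calves averaged 0.849 ± 0.458 CPM, and 5-HTP-supplemented calves 0.786 ± 0.455 CPM (SD, n = 4). This is a logFC of -0.07, with a standard error of 0.55 and a 95% interval from -1.15 to 1.02 (FDR = 0.997, likelihood ratio test of edgeR). The coefficient of variation was 53.9% in CON and 57.9% in 5-HTP-supplemented calves, against 26.7% and 27.5% from counting alone. Both exceeded the counting value, but the CON value rests largely on calf 1 and on its scaling. That calf was at 1.53 CPM with TMM factors and at 0.822 CPM with library totals. A difference of the size seen in adipose tissue lies just beyond the upper end of the interval, and smaller ones in either direction were not detectable. The interval leaves out the uncertainty of the dispersion, and without calf 1 the logFC was 0.33 (standard error 0.55). A muscle difference as large as that in adipose tissue is therefore not excluded. Over all arrangements of the 8 libraries, an exact permutation test (two-sided, log2(CPM + 0.5)) gave p = 0.8.

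ANKRD33B was counted deeply in muscle, and here too the groups overlapped. It was at 201, 263, 178 and 162 CPM in CON calves 1 to 4, from 2755, 5008, 3086 and 3234 counts. It was at 228, 203, 193 and 186 CPM in calves 5 to 8, from 4704, 3215, 2815 and 2544 counts. All 4 values of 5-HTP-supplemented calves fell inside the range of the CON calves. The means were 201 ± 44.3 and 202 ± 18.3 CPM (SD, n = 4), giving a logFC of 0.01 (standard error 0.19, 95% interval from -0.36 to 0.38) and an FDR of 0.997 by edgeR's likelihood ratio test. The two-sided exact permutation test gave p = 0.886 (n = 8, smallest possible p = 0.0286). Changes of more than 1.30-fold up or to under 0.780 of the CON level lie outside that interval, so depth is not the limit for this gene.

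Neither of the 2 genes was called in muscle, where 0.201% of the features tested were called by edgeR's likelihood ratio test at the FDR threshold of 0.20. At an unadjusted P value under 0.05 there were also 0 of the 2 in the likelihood ratio test of edgeR (4.83% of all features), its quasi-likelihood test (4.43%) and DESeq2 (4.95%). The marker sums of the muscle groups did not overlap for any of the 4 lists. The study called every one of these markers lower in 5-HTP-supplemented calves in the same muscle libraries. The separation therefore largely restates how its list was made, and the share of all features that separate in muscle was not computed. TTN and IGFN1 summed to 2599 to 6823 CPM in CON and 1412 to 2472 CPM in 5-HTP, and CFD had 4.62 to 9.29 against 1.57 to 3.78 CPM. The macrophage markers summed to 8.90 to 29.2 against 3.73 to 8.13 CPM, and FOS and EGR1 to 89.5 to 1214 against 40.1 to 48.6 CPM. Their part in the muscle values was not tested. The logFC in adipose tissue exceeded that in muscle by 1.33 (standard error 0.60) for REEP6 and by 1.28 (standard error 0.37) for ANKRD33B in a fit over all 16 libraries. This difference between tissues was not tested, since its adipose side is the contrast on which the genes were chosen.

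**Figure D2:**
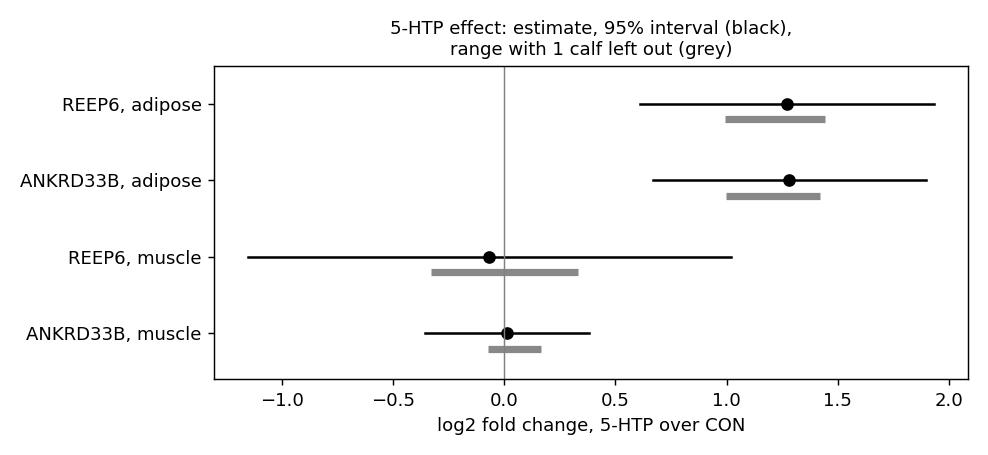
Log2 fold change of 5-HTP-supplemented over CON calves for each gene in each tissue, with the 95% interval in black and the range over the 8 fits that left out 1 calf in grey. The adipose estimates are 1.27 and 1.28, and the muscle estimates are -0.07 for REEP6, with a wide interval, and 0.01 for ANKRD33B, with a narrow one.

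The genes lay on opposite sides of the difference between tissues. REEP6 was higher in adipose tissue, with a lowest, median and highest value of 3.86, 9.59 and 25.5 CPM, against 0.219, 0.643 and 1.53 CPM in muscle (n = 8 each). Every adipose library was above every muscle library, as in 14.7% of all features tested. The log2 ratio was 3.73 with a standard error of 0.28, a 13.3-fold difference with a 95% interval from 9.10 to 19.4 (FDR = 3.17e-09, quasi-likelihood test of edgeR). A call in this direction was made for 35.5% of the features, and 6.08% of them had a larger adipose to muscle ratio than REEP6.

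ANKRD33B was lower in adipose tissue, at 17.2, 42.2 and 109 CPM (lowest, median and highest), against 162, 197 and 263 CPM in muscle. All 8 muscle libraries were above all 8 adipose libraries on this scale, as in 17.8% of all features tested. The log2 ratio was -2.16 with a standard error of 0.17, and muscle was 4.46-fold higher with a 95% interval from 3.53 to 5.64 (FDR = 5.22e-09, quasi-likelihood test of edgeR). This direction was called for 30.3% of the features, and 9.58% of them had a lower ratio than ANKRD33B.

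The size of these ratios depends on how the tissues were scaled. TMM factors were 1.39 to 1.61 in adipose libraries and 0.536 to 0.721 in muscle libraries. Scaled to library totals alone, the median feature moved by 1.18 on the log2 scale, the calls went from 7746 higher and 6617 lower in adipose tissue to 15798 higher and 2550 lower, and the log2 ratio became 4.94 for REEP6 and -0.97 for ANKRD33B. Relative to the median feature, REEP6 was 3.59 higher with TMM and 3.61 higher with library totals, and ANKRD33B stood at -2.30 with both. A change of scaling moves all features by about the same amount. The likeness of these relative values was therefore fixed in advance and does not show which scaling is right. The direction held for both genes, but with library totals the ANKRD33B ranges overlapped, from 26.4 to 164 CPM in adipose tissue and from 108 to 184 CPM in muscle.

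Calf by calf, the adipose to muscle ratio of REEP6 was 5.67, 6.69, 11.8 and 12.2 in CON calves 1 to 4 and 9.85, 25.6, 12.7 and 116 in calves 5 to 8. The value of 116 in calf 8 rests on 3 counts in muscle, and its exact 95% interval from counting runs from 39.7 to 566. For ANKRD33B, muscle was 5.74, 7.92, 5.87 and 9.41 times above adipose tissue in CON calves 1 to 4 and 3.15, 4.10, 1.77 and 3.60 times in calves 5 to 8. REEP6 was higher in adipose tissue in 8 of 8 calves, and ANKRD33B was lower in 8 of 8 (two-sided exact sign-flip permutation test over calves, p = 0.00781 for each, the smallest p that 8 calves allow). With library totals, ANKRD33B was higher in adipose tissue than in muscle in calf 7, by 1.35-fold, and lower in the other calves.

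**Figure D3:**
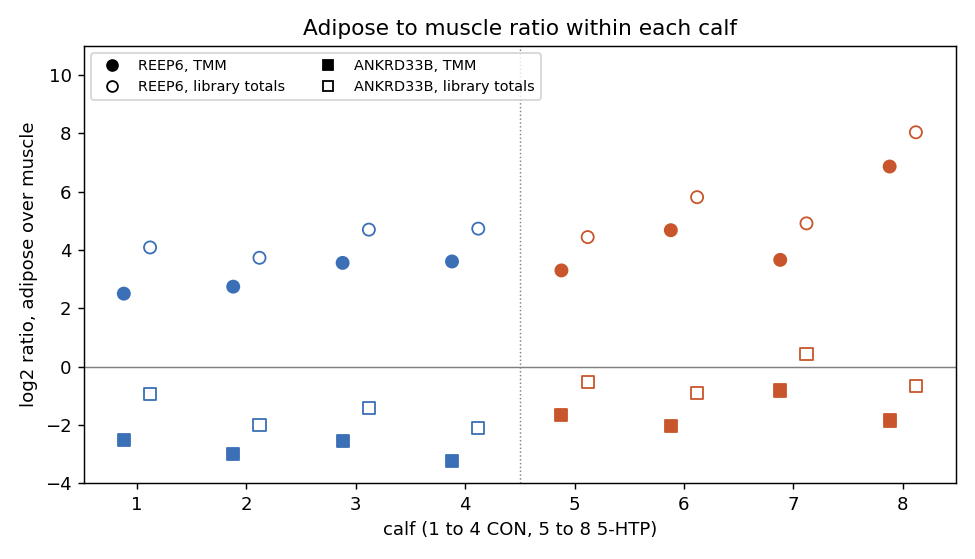
Log2 ratio of adipose to muscle CPM in each calf (1 to 4 CON in blue, 5 to 8 5-HTP in orange) for REEP6 (circles) and ANKRD33B (squares), with TMM factors (filled) and with library totals alone (open). REEP6 lies above 0 and ANKRD33B below 0 in all 8 calves with TMM, and library totals lift every point and carry ANKRD33B of calf 7 to 0.43.

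The ordering of the 4 groups followed from these values. REEP6 was highest in the adipose tissue of 5-HTP-supplemented calves, then in that of CON calves, and the muscle groups, which overlapped, came last. ANKRD33B was highest in the muscle groups, which also overlapped, then in the adipose tissue of 5-HTP-supplemented calves and last in that of CON calves. In CON calves the log2 ratio of ANKRD33B between tissues was -2.79 and in 5-HTP-supplemented calves -1.52, while that of REEP6 was 3.07 and 4.40. These within-group ratios carry the adipose values on which the genes were chosen, and neither they nor their difference were tested.

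The muscle mean of REEP6 was 6.84% of its adipose mean. For CFD, the adipose marker, the muscle mean was 21.8% of the adipose mean, a larger share than for REEP6, and the difference between these shares was not tested. The part of fat within muscle in the REEP6 counts was not tested.

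Whether the genes vary together was read from the deviations of each adipose library from its group mean, because both genes were chosen for the same group difference and a pooled correlation would restate it. On the log2(CPM + 0.5) scale, the deviations of REEP6 in CON calves 1 to 4 were 0.35, -0.72, 0.15 and 0.22, and those of ANKRD33B were 0.32, 0.24, 0.12 and -0.69. Calves 1 and 3 were above the mean for both genes, calf 2 was low for REEP6 alone and calf 4 for ANKRD33B alone. In calves 5 to 8 the deviations of REEP6 were -0.60, 0.00, -0.05 and 0.65, and those of ANKRD33B 0.11, -0.44, 0.70 and -0.37. Calf 8 was the highest for REEP6 and below the mean for ANKRD33B, and calf 7 was the highest for ANKRD33B.

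**Figure D4:**
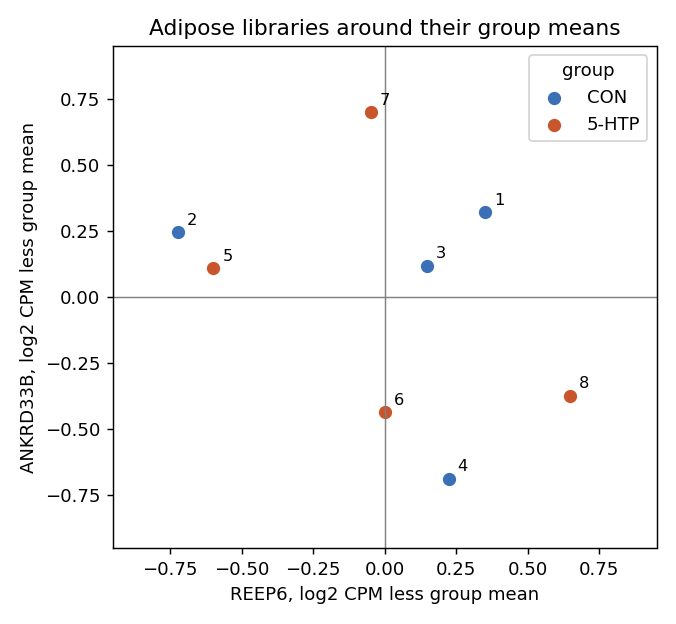
Deviation of log2(CPM + 0.5) from the group mean in each adipose library, REEP6 on the x axis and ANKRD33B on the y axis, numbered by calf and coloured by group. The points form no rising line (r = -0.36 over 8 libraries), and the calves farthest out differ between the axes.

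The deviations had the same sign in 2 of 8 calves. Those of REEP6 in calves 6 and 7 were near 0, so the signs of these calves say little. The Pearson correlation of the deviations was -0.36 over the 8 libraries, which share depth and scaling factors between the genes. It ranged from -0.52 without calf 1 to -0.20 without calf 8. It is a description and was not tested. In muscle, where the groups overlapped, log2(CPM + 0.5) of the genes had a Pearson r of 0.14 (exact permutation p = 0.751, n = 8) and a Spearman rho of -0.05 (exact permutation p = 0.935, n = 8), and r was 0.01 without calves 1 and 8, the libraries farthest from the median of REEP6. It was the only relation across muscle libraries that was tested, and the muscle values of REEP6 rest on 3 to 22 counts. No common variation of the genes was detectable in muscle.

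For the same gene, the deviations in adipose tissue and muscle had the same sign in 2 of 8 calves for REEP6, whose muscle values rest on few counts, and in 5 of 8 for ANKRD33B. This was not tested.

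The genes had different company in adipose tissue. Likeness was measured as the Pearson correlation of deviations from the group means over the 8 adipose libraries, for 20166 other features, and it is a description of these libraries. For REEP6 the middle 90% of features spread from -0.75 to 0.77, and 172 features exceeded 0.9. For ANKRD33B the middle 90% spread from -0.59 to 0.58, and 35 features exceeded 0.9. By likeness to REEP6, ANKRD33B ranked 14714, and by likeness to ANKRD33B, REEP6 ranked 16875.

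Closest to REEP6 were XLOC_007919 (r = 0.99) and ENSBTAG00000000087 (r = 0.99), which the sources used here pair with no symbol. ENSBTAG00000000087 had 67.2, 34.8, 59.9 and 56.9 CPM in CON calves 1 to 4, then 52.0, 73.4, 76.0 and 118 CPM in calves 5 to 8, with its lowest value in calf 2 and its highest in calf 8, as for REEP6. XLOC_007919 had 2 to 114 counts. Only 27 of the features compared had a symbol, all from the study's lists of called genes. Among these, CISH, a feedback inhibitor of cytokine and growth hormone signalling, came first (r = 0.80). Then came NPR3, the clearance receptor of natriuretic peptides (r = 0.77), and CYP4F2, a fatty acid hydroxylase (r = 0.74). They ranked 723, 1013 and 1245 of all 20166 features, so many features without a symbol were closer. CYP4F2 had its highest adipose value, 6.71 CPM, in calf 8.

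Closest to ANKRD33B were XLOC_013060 (r = 0.98, 0 to 17 counts) and XLOC_017136 (r = 0.97), both without a symbol. XLOC_017136 had 3.41, 3.28, 3.10 and 1.79 CPM in CON calves 1 to 4, then 2.17, 1.94, 3.33 and 1.67 CPM in calves 5 to 8. Calf 4 was its lowest CON calf and calf 7 its highest 5-HTP calf, as for ANKRD33B, but its groups overlapped. Among features with a symbol, SLC7A8 (XLOC_002658), a transporter of neutral amino acids, came first (r = 0.75), then the WDR86 locus XLOC_030964 (r = 0.26) and CFD (r = 0.23). A second feature with the symbol WDR86 (ENSBTAG00000006232) had an r of -0.83, the lowest of the 27 features with a symbol. SLC7A8 was at 9.52, 1.31, 10.8 and 4.77 CPM in calves 5 to 8, highest in calf 7 and lowest in calf 6, the same calves as for ANKRD33B. In muscle, which was not used for the ranking, r with ANKRD33B was 0.62 for SLC7A8, 0.53 for XLOC_013060 and -0.51 for XLOC_017136 (8 libraries). It was 0.14 for the WDR86 locus XLOC_030964 and 0.48 for CFD. Muscle counts were 5 to 31 for SLC7A8, 0 to 8 for XLOC_013060 and 11 to 51 for XLOC_017136. Few counts therefore limit the values of these features. For REEP6, the corresponding muscle values were -0.10 for XLOC_007919, -0.31 for ENSBTAG00000000087, -0.05 for CISH, -0.48 for NPR3 and 0.42 for CYP4F2. All of these rest on few counts of REEP6, and XLOC_007919 itself had 0 to 8 counts in muscle.

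**Figure D5:**
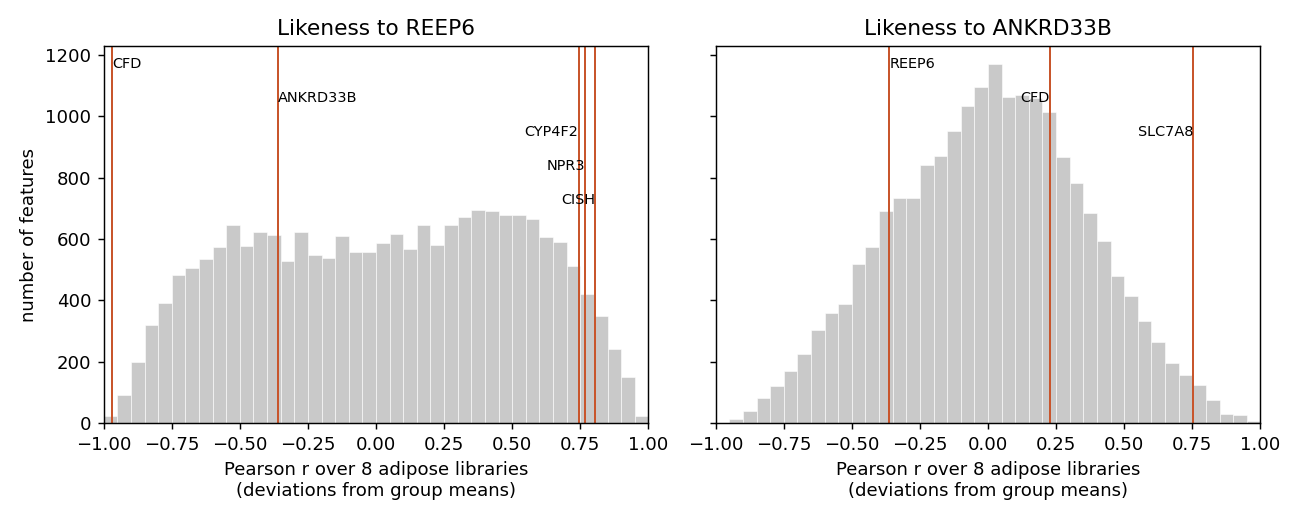
Number of features by Pearson r with REEP6 (left) and ANKRD33B (right) over 8 adipose libraries after removal of the group means, with named features as vertical lines. The distribution is broader for REEP6, CFD lies at its lower end, and each gene lies at -0.36 in the distribution of the other.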

How the data were processed

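RNA-Seq of adipose tissue and muscle from 8 calves gave 16 libraries, whose labels give tissue and treatment. The deposited values are counts without normalization. The authors trimmed the reads with Trim Galore 0.4.4, aligned them to the ARS-UCD1.2 assembly (Hisat2), merged Cufflinks 2.2.1 transcript models with the annotation and counted uniquely mapped reads per gene with htseq-count. Strand is not given in the sources used here. Everything else was computed here with R 4.3.3, edgeR 4.0.16, DESeq2 1.42.0 and Python 3.11.15. Features that reached 10 counts in 4 or more libraries of a fit were kept and TMM-normalized. Taken literally, the study's filter instead removed features that fell under 10 counts in 4 or more libraries, which is the other reading of the filter below. With that reading the adipose call was made for ANKRD33B and not for REEP6. Treatment was tested within each tissue by the likelihood ratio test of edgeR, as in the study (FDR threshold 0.20), and adipose tissue was compared with muscle by the quasi-likelihood test of edgeR over 4 group means (FDR threshold 0.05), both with Benjamini-Hochberg adjustment over all features. Standard errors and intervals come from the negative binomial information and leave out the uncertainty of the dispersion. Exact tests used log2(CPM + 0.5), and within-calf ratios used CPM without a pseudocount. The steps were tested on simulated counts. The members, lists and tests were chosen with earlier results of these data known. The named features were the 2 features closest to each gene and the 3 closest with a symbol, symbols being taken from 31 features named in the supplementary tables. The RefSeq table pairs 0 genes with an Ensembl identifier, so the lists of REEP family, endoplasmic reticulum and ankyrin genes and the other markers were not analysed here, nor were promoters or proteins. Counting intervals cover counting error only. P values of the treatment tests and exact tests measure the spread between these calves. The tissue fit over 4 group means treats the 16 libraries as independent, although each calf gave a library of each tissue.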

Additional observations from a re-analysis of the deposited data

Results flagged for a closer look

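In the muscle of CON calves, REEP6 of calf 1 lay far from the other libraries. It was at 1.53 CPM, from 21 counts, against 0.577 to 0.650 CPM in calves 2 to 4, and the gap to the nearest library was 0.924 of the range of the group. This library also had the lowest TMM factor (0.536, against 0.632 to 0.721 in the other muscle libraries), and scaled to library totals its value was 0.822 CPM. Without it the muscle logFC of REEP6 was 0.33 with a standard error of 0.55. Each of the 8 groups of 4 values was looked at, and chance flags about 1 in 20 groups.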

How the results depend on the processing

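The adipose calls of both genes (FDR at or under 0.20) depended on the setting: REEP6 was called in 2 of 7 and ANKRD33B in 6 of 7 other settings, and in 2 and 5 of the 8 fits with 1 calf left out. The cause was not tested. The adipose differences themselves stayed between 1.24 and 1.27 for REEP6 and between 1.27 and 1.31 for ANKRD33B over those 7 settings (quasi-likelihood test, DESeq2, RLE, library totals, no filter, the other reading of the filter, and all 16 libraries in 1 fit). In muscle no setting called either gene (FDR from 0.976 to 1, edgeR and DESeq2, which gave none for REEP6). The muscle logFC of REEP6 turned to 0.0084 with library totals and ranged from -0.33 to 0.33 with 1 calf left out, and that of ANKRD33B from -0.073 to 0.17. The muscle correlation of the genes turned to -0.059 with library totals and ranged from 0.0070 to 0.43 with 1 calf left out. The tissue ratios kept direction and call in all 16 alternatives, of which those within CON or 5-HTP-supplemented calves alone use the values that chose the genes. They ran from 3.46 to 3.92 for REEP6 and from -2.31 to -2.07 for ANKRD33B with 1 calf left out. With the calf number as a replicate block they were 3.72 and -2.21 (FDR = 1.01e-07 and 4.29e-07, quasi-likelihood test of edgeR), with 14074 features called in place of 14363. Same-numbered libraries correlated between -0.22 and 0.27 (mean 0.11) in their deviations, and 5 of 8 adipose libraries correlated best with their own number. Within a tissue, no paired analysis was possible because the treatment groups share no numbers. Counts of features called moved more: in adipose tissue from 22 to 1 with the quasi-likelihood test, to 56 with all 16 libraries and to between 4 and 56 with 1 calf left out, and in muscle from 34 to 1 with the quasi-likelihood test, to 21 with library totals and to between 13 and 188 with 1 calf left out. REEP6 in muscle had the fewest counts, and both counting error and the spread between calves limit it.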

Other observations

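CFD stood at the opposite end from REEP6 in adipose tissue. The deviations of the 2 genes from their group means had an r of -0.97 over 8 libraries, and 7 of the 20166 features had a lower value. CFD was highest in calf 2 (50.3 CPM), where REEP6 was lowest, and lowest in calf 8 (7.58 CPM), where REEP6 was highest. In muscle the same r was -0.28, on 3 to 22 counts of REEP6. CFD was singled out after its values were seen, and this correlation was not tested.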
